A study of Mus musculus with 4 samples.

Results

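The genes described here are 8 junction genes of the alveolar epithelium, taken by name: the claudins Cldn3, Cldn4, Cldn7 and Cldn18, occludin (Ocln), the scaffold gene Tjp1, the adhesion molecule gene F11r and E-cadherin (Cdh1). They are 8 of the 14561 genes listed in any of the 4 libraries, and 7 of them were listed in every library. Cldn4 was listed at P3 and P15 and in neither P60 file. Cdh1 belongs to the adherens junction and not to the tight junction, and is kept as its neighbour in the same belt of contacts.

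The study sorted mouse lung cells into 4 groups of 1 library each and sequenced them with the 10x 3' single-cell protocol, in which each transcript counted carries a unique molecular identifier (UMI). All animals had a mixed FVB/C57BL6 background, carried Sftpc-CreER, Rosa26-Zsgreen and Hopx-RFP, and had received tamoxifen, so the Cre was driven by the gene of a surfactant protein. The sort took RFP+Pdpn+GFP-CD45- cells as alveolar type I (AT1) at 3, 15 and 60 days after birth (P3, P15 and P60), and GFP+CD45- cells as alveolar type II (AT2) at P60. The AT1 gate was GFP-, so it left out any cell in which the Cre had switched on the green reporter. AT1 lungs were dissociated with elastase and collagenase besides neutral protease and DNase I, and AT2 lungs with the latter pair alone, so the P60 comparison of cell types is also a comparison of dissociations, which cannot be told apart. No label says how many animals went into a library or when tamoxifen was given. With 1 library per group there was no test between groups, so differences are given by size without p-values and have no check against biological spread.

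Tight junctions seal the gap between neighbouring epithelial cells. Claudins are the membrane proteins that form the sealing strands and set which ions pass, occludin and F11r (also called JAM-A) are further membrane proteins of the strand region, and Tjp1 (ZO-1) is the scaffold beneath the membrane that ties claudins to actin. In the alveolus the seal keeps fluid out of the air space, Cldn18 is known as a main claudin of AT1 cells, and Cldn3 and Cldn4 are known from AT2 and airway epithelium. AT1 cells are thin and spread over the air space for gas exchange, and AT2 cells are cuboidal and make surfactant.

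The libraries held 3149, 2940, 1337 and 2093 cells (AT1 at P3, P15 and P60, then AT2 at P60) with 26536894, 15401939, 7276458 and 10379705 UMIs. Clusters made without any junction gene left 2821, 2654 and 1199 AT1-like cells and 2019 AT2-like cells, or 89.6 to 96.5% of a library. UMIs were summed over these cells and scaled to the class total (CPM, a gene's UMIs in each 1000000 UMIs of the class). All 20 AT1 marker genes were above 0 in each AT1 class, with sums of 34794, 65210 and 56021 CPM by age, and 19 of 20 were above 0 in AT2-like cells, with a sum of 2713 CPM. The 20 AT2 markers summed to 262082 CPM in AT2-like cells and to 799, 579 and 706 CPM in AT1-like cells. Endothelial markers summed to at most 51.9 CPM in any class, and immune markers to at most 162 CPM in AT1-like cells and 28562 CPM in AT2-like cells, of which 27556 CPM was Lyz2, a gene that AT2 cells are known to express. Among the clusters kept, cluster 4 at P60 (112 cells) was led by the platelet genes Ppbp and Pf4, cluster 7 at P15 had the AT2 marker Sftpd among its leading genes, and cluster 1 of the AT2 library (714 cells) had the AT1 markers Hopx and Pdpn. Library pairs shared 3 to 15 cell barcodes. Intervals are 95% counting intervals throughout, and cover neither animals nor library preparation.

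Cldn3 and Cldn4 are neighbours on mouse chromosome 5 (mm10). Cldn4 lies on the minus strand at chr5:134945119-134946934 and Cldn3 on the plus strand at chr5:134986214-134987472, with 39279 bases between the annotated genes. These are the genes that differed most between the AT1 ages, so the 250 bases before each start are shown (RefSeq, GRCm38.p6, 5′ to 3′ on the gene's own strand, chr5:134985964-134986213 for Cldn3 and chr5:134946935-134947184 for Cldn4). Capitals mark every match, on either strand, to 6 short motifs that were chosen with the sequences in view: TGANTCA (the AP-1 site), CACCTG (the E-box bound by Snail and ZEB factors), GGGCGG (the GC box), CTCAAG (an NKX2-1 core), AACNGGTT (the grainyhead-like site) and TATAAA (the TATA box).
Cldn3: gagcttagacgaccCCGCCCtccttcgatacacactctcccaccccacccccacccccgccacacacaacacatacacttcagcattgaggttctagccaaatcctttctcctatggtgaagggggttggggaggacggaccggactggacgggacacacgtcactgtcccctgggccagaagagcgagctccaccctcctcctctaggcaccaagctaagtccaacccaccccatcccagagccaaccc
Cldn4: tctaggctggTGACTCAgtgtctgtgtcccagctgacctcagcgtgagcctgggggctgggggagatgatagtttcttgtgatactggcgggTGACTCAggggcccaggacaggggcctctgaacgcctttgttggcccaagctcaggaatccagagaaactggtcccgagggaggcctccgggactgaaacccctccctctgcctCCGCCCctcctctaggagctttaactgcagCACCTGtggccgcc

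The Cldn4 window holds TGACTCA at 2 places, with the first base 240 and 158 bases before the start, CACCTG at 14 bases and CCGCCC, the reverse of the GC box, at 44 bases. The Cldn3 window holds CCGCCC alone, at 236 bases. TGANTCA was found in 6.75% of the 32851 mouse promoter windows of this length, CACCTG in 17.2%, GGGCGG in 32.7%, CTCAAG in 13.3%, AACNGGTT in 1.79% and TATAAA in 12.4%. RefSeq windows were found for 7 of the 8 genes, 10 windows in all. Among the other windows TGANTCA occurs for F11r alone, where TGAGTCA begins 109 bases before the start, and CACCTG or its reverse occurs for F11r and for the second listed start of Cldn7 and of Ocln. Both Cldn18 windows hold none of the 6. No match overlapped another in the Cldn3 and Cldn4 windows. A match describes these letters only.

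Cldn3 was lower at each later AT1 age. Its level was 612 CPM at P3 (602 to 623), 28.3 CPM at P15 (25.5 to 31.2) and 2.13 CPM at P60 (1.17 to 3.58). The 3 intervals do not overlap. P15 was 21.6-fold lower than P3 (19.6 to 24.0) and P60 was 287-fold lower than P3 (171 to 525). The step from P15 to P60, 13.3-fold (7.81 to 24.5), lies between levels that are both below the 50 CPM minimum set for counting differences. In UMIs, 13768 at P3, 390 at P15 and 14 at P60 stand behind these values, and the 14 were in 14 different cells. AT2 marker genes, which could carry Cldn3 in with them, summed to 799, 579 and 706 CPM at the same ages. In these sorted samples a lower level in each cell and fewer cells with the gene are both part of a class sum.

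Cells of a library differ in depth, so the share of cells with a UMI was taken after thinning each cell to 2000 UMIs. Cldn3 was then seen in 64.4% of AT1-like cells at P3 (62.6 to 66.1), in 4.05% at P15 (3.3 to 4.91) and in 2 of 1077 cells at P60. Without thinning the shares were 91.5, 7.5 and 1.17%. Thinning left out 210 cells at P15, 122 at P60 and none at P3. Cells of clusters named non-epithelial, thinned alike, had a Cldn3 UMI in 42.6% of 115 at P3 (33.4 to 52.2) and in 0.552% of 181 at P15. At P60 it was 0 of 38, which allows up to 7.89%. Among those at P3, the immune-like cells held 24222 CPM of AT1 markers and the mesenchymal or endothelial-like cells 11647 CPM. At a finer clustering (resolution 1), 32 P3 cells led by the platelet genes Pf4 and Ppbp had 32520 CPM of AT1 markers, against 34794 CPM in AT1-like cells. A group of 14 led by S100a8 and Ccl6 had 7415 CPM, and 50 cells led by Eln and Mfap4 had 8372 CPM. Many of the immune-like cells, and some others of the 115, may thus be AT1 cells or hold AT1 RNA, which was not tested. So 42.6% is not a clean background. Beside these, 49 non-epithelial cells of the P3 library with few AT1 transcripts had a Cldn3 UMI in 12.2% of cells before thinning (4.63 to 24.8), at a median of 7853 UMIs against 7294 in the class. The same kind of cell at P15, 183 in number, had one in 2.19% (0.599 to 5.5), at a median of 4196 against 4940.5. Their levels were 14.6 CPM at P3 (5.35 to 31.7) and 4.56 CPM at P15 (1.24 to 11.7), below those of the AT1-like cells in both libraries. At P60, 0 of 43 such cells had a UMI, which allows a level of up to 21.3 CPM, so the 2.13 CPM of AT1-like cells cannot be set apart from background at this depth. These background cells were chosen with the data in view, by at least 3 non-epithelial markers and an AT1 (in the AT2 library, AT2) marker share under 25% of that of the class. The rule leaves out cells that hold more AT1 (or AT2) RNA, so the background levels are low partly by construction. All immune-like and all mesenchymal or endothelial-like cells at P3, groups that may hold AT1 cells, had 408 and 241 CPM of Cldn3.

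Droplet libraries also hold free RNA, so Cldn3 was set beside the surfactant gene Sftpc. In the 65 AT2-like cells of the P3 library there were 0.956 Cldn3 UMIs per 100 Sftpc UMIs (0.891 to 1.02), and AT1-like cells of that library had 197 per 100 (192 to 203). P15 AT1-like cells had 22.7 per 100 (20.3 to 25.3), against 2.41 (2.20 to 2.64) in the 63 mixed AT2 and club-like cells. Both ratios are higher than those of the AT2-like cells in the same library, and the part of AT2 RNA in the AT1-like levels was not tested. Such ratios were not particular to AT1-like cells. At P3 they were 215 (162 to 290) in immune-like cells, some of which may be AT1 cells, and 157 (122 to 202) in mesenchymal or endothelial-like cells. Club and ciliated-like cells had 508. At P15 mesenchymal or endothelial-like cells had 16.2 (5.59 to 38.8) and immune-like cells 0.512. In P60 AT1-like cells the ratio was 0.974 per 100 (0.531 to 1.64), with an interval that overlaps the 0.481 per 100 (0.355 to 0.639) of the 53 AT2 and immune-like cells there. The ratios of Cldn3 that use the P60 AT1 level rest on its 14 UMIs, which were not told apart from background. The club cell gene Scgb1a1, at 47532 CPM in airway cells of the P3 library, was at 1022 to 1108 CPM in its AT1-like, AT2-like, immune-like and mesenchymal-like cells alike. Cldn3 was at 1719 CPM in those airway cells and at 612 CPM in AT1-like cells, and the part of free airway RNA in the AT1-like level was not tested.

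Cldn4 was listed at 56.5 CPM at P3 (53.4 to 59.7) and 1.16 CPM at P15 (0.663 to 1.88), with 1270 and 16 UMIs. P15 was 48.7-fold lower (29.9 to 85.4). A UMI was found in 9.32% of thinned P3 cells (8.27 to 10.5) and 4 of 2444 thinned P15 cells. The P3 level lies just above the 50 CPM minimum. The 1% of cells with most Cldn4 held 16.6% of its UMIs, a share that also grows as a gene has fewer UMIs, and 1 cell held 31. Without those cells it was 47.6 CPM, without the clusters led by immediate early genes 38.8 CPM, and without cells with 3 or more AT2 markers 46.3 CPM, each under the minimum. The P3 background cells had 0 Cldn4 UMIs, which allows up to 7.28 CPM.

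**Figure D1:**
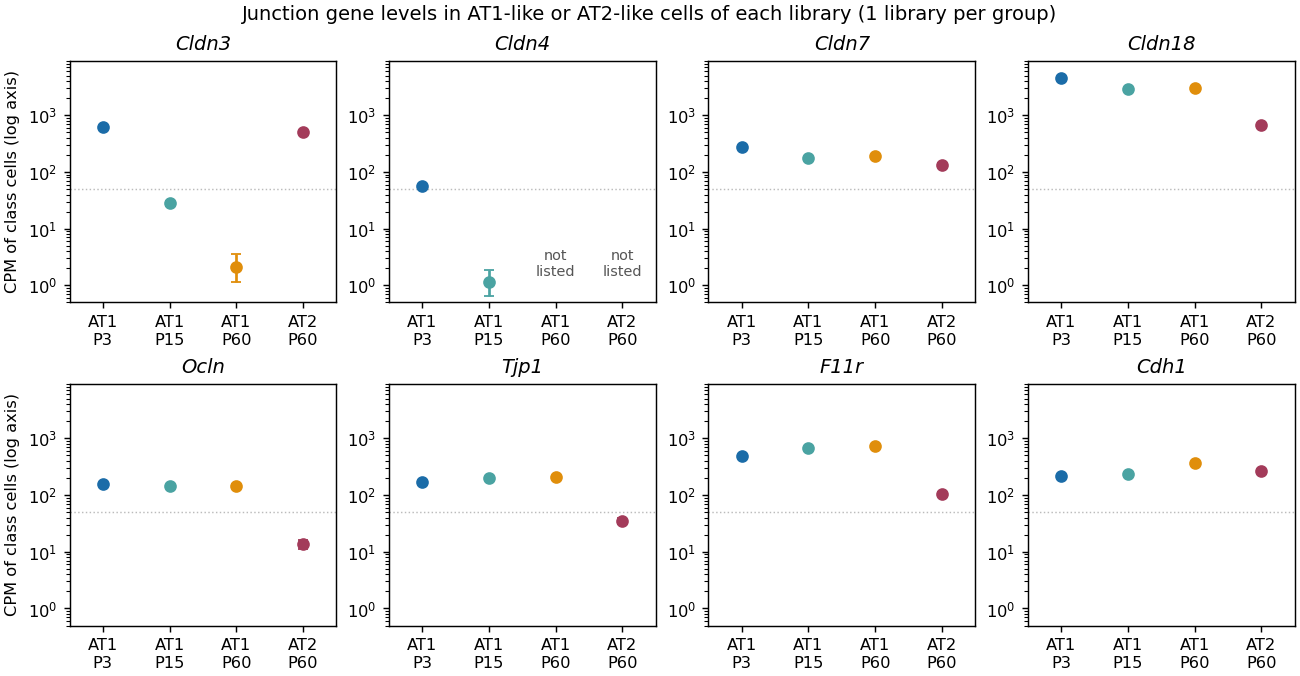
Level of each gene in AT1-like or AT2-like cells of the 4 libraries, in CPM on a log axis with 95% counting intervals (hidden by the point where narrow), 1 library per group; the dotted line is the 50 CPM minimum. Cldn3 runs from 612 CPM at P3 to 2.13 CPM in P60 AT1-like cells and stands at 503 CPM in AT2-like cells. Over the AT1 ages Ocln is slightly lower after P3 (157, 141 and 145 CPM), and Tjp1 and F11r are higher. Ocln, Tjp1 and F11r are low in AT2-like cells.

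Within the P3 library Cldn3 and Cldn4 varied between groups of AT1-like cells, while the other 6 genes varied by at most 1.21-fold. The clusters were made without junction genes. Cldn3 was highest at 939 CPM (912 to 968) in the 636 cells of cluster 5, whose leading genes include Fosb, Jun, Atf3 and Fos, immediate early genes that switch on within minutes of a stimulus, dissociation included. It was lowest at 313 CPM (295 to 333) in the 402 cells of cluster 4, led by Igfbp2, a binding protein of insulin-like growth factors that is known as a marker of mature AT1 cells. Cldn4 was also highest in cluster 5, at 107 CPM (97.8 to 117), and was low in cluster 4, at 27.1 CPM (21.8 to 33.3), and in cluster 1, at 27.5 CPM (22.7 to 33.1), with intervals that overlap. Clusters 0, 1 and 3 were at 561, 533 and 664 CPM for Cldn3, and clusters 0 and 3 at 50.3 and 64.4 CPM for Cldn4. The pair parted in cluster 1, where Cldn3 was above its cluster 4 level and Cldn4 was not. The 12 immediate early markers summed to 11634, 9962, 9641, 3813 and 3363 CPM in clusters 5, 0, 3, 1 and 4. Their part in the levels of Cldn3 and Cldn4 was not tested. The AT2 marker sum was 1251 CPM in cluster 5 and 649 to 699 CPM in the other 4. Cells are not replicates, and these are differences between cells of 1 library.

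The same pair went together in single cells of the P3 library. After thinning, Cldn4 had a UMI in 11.3% (9.87 to 12.8) of the 1816 AT1-like cells with a Cldn3 UMI and in 5.77% (4.41 to 7.4) of the 1005 without. Cldn7 was seen in 43 and 40.4% of these cells, Ocln in 27.6 and 25.4%, Tjp1 in 28.9 and 29.2%, and Cdh1 in 34.4 and 34.5%, shares whose intervals overlap. Sftpc, a gene of AT2 cells, was seen in 31.4 and 30.9% of the same cells.

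At P15 the level of Cldn3 differed between clusters of AT1-like cells. Cluster 7, with 186 of the 2654 cells, held 115 of the 390 UMIs at 164 CPM (135 to 196). Cluster 1, with 484 cells and led by Atf3 and Fosb, held 151 UMIs at 50.1 CPM (42.5 to 58.8). The other 5 clusters were at 4.03 to 26.3 CPM. Cluster 7 was led by Nnat, Pf4, S100a14, Nrep and Tmsb10, had the highest Cldn7 of the 7 clusters, 265 CPM against 138 to 222 CPM, and the lowest F11r and Cdh1, 503 and 189 CPM. Its AT1 marker sum was 54149 CPM, the lowest of the 7 (range of the others 60874 to 75849 CPM), and its immediate early sum was 2247 CPM, also the lowest. Sftpd, an AT2 marker, was among its leading genes, and its Cldn3 stood at 139 per 100 Sftpc UMIs (104 to 186), against 2.41 in the AT2 and club-like cells. Without this cluster, a choice made after the values were seen, the P15 level of Cldn3 was 21 CPM. The 1% of P15 AT1-like cells with most Cldn3 held 39% of its UMIs, a share that also grows as a gene has fewer UMIs.

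**Figure D2:**
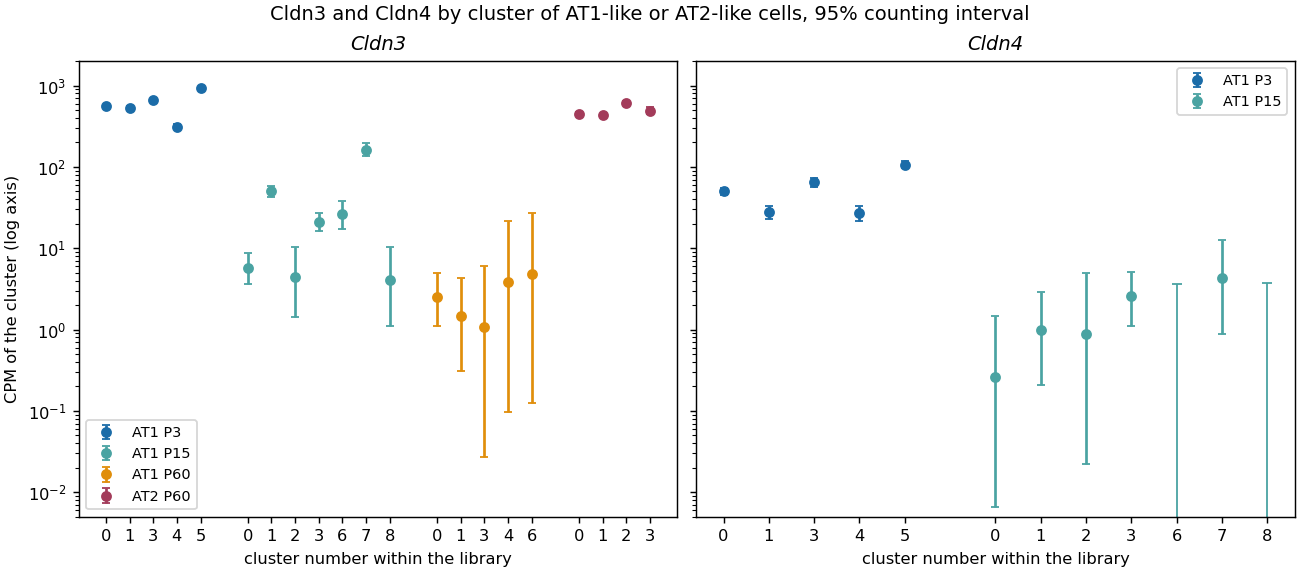
Cldn3 and Cldn4 in each cluster of AT1-like or AT2-like cells, in CPM on a log axis with 95% counting intervals; a line without a point is a cluster with 0 UMIs, drawn up to its upper bound, and clusters are numbered within a library. Cluster 5 at P3 is highest for both genes, and at P15 the Cldn3 of cluster 7 (164 CPM) stands above the other 6 clusters (4.03 to 50.1 CPM).

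Cldn18 (chr9:99689461-99717267, minus strand), with 2 annotated starts that 3' UMIs do not separate, was the claudin with most UMIs in AT1-like cells at all ages. Its level was 4524 CPM at P3 (4496 to 4552), 2883 CPM at P15 (2855 to 2912) and 2975 CPM at P60 (2933 to 3017). P15 was 1.57-fold lower than P3 (1.55 to 1.59), short of the 2-fold size counted here, and P60 differed from P15 by a ratio of 1.03 (1.01 to 1.05). That last direction turned under scaling by trimmed means (TMM) or median of ratios. It was found in 100, 98.9 and 99.1% of thinned AT1-like cells. Cells of clusters named non-epithelial, thinned alike, had a Cldn18 UMI in 60.9, 24.3 and 57.9%. Those clusters carried AT1 transcripts at each age. Their AT1 marker sums were 11647 and 24222 CPM at P3, 5779 to 14233 CPM at P15 and 11959 CPM at P60, so these shares are not a clean background. Their median depths before thinning were 8290, 4405 and 2948 UMIs, against 7294, 4940.5 and 5377 in the classes. In the background cells with few AT1 transcripts its level was 63.1 CPM at P3 (41.2 to 92.5), 104 CPM at P15 (83.6 to 127) and 454 CPM at P60 (349 to 579).

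Cldn7 (chr11:69964779-69967885, plus strand), a claudin of many epithelia that also sits along the lateral membrane, was at 273 CPM at P3 (266 to 280), 178 CPM at P15 (171 to 185) and 190 CPM at P60 (180 to 201). P3 was the highest of the 3, and the P15 and P60 intervals overlap. P15 was 1.53-fold lower than P3 (1.46 to 1.61). Each 3' UMI counts 1 transcript end whatever the length, but how well each gene is captured and mapped was not checked. The claudins are therefore set beside each other as shares of UMIs only. Of the UMIs of the 4 claudins, Cldn18 made up 82.8% at P3, 93.3% at P15 and 93.9% at P60. Cldn3 made up 11.2, 0.915 and 0.0673%, Cldn7 4.99, 5.76 and 6.01%, and Cldn4 1.03% at P3 and 0.0375% at P15. Other claudins are outside these shares, among them Cldn23 at 43.1 CPM at P15 and 35.5 CPM at P60, and Cldn12 at 25.2 and 22.5 CPM.

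Ocln (chr13:100496507-100552718, minus strand) did not vary beyond 1.11-fold over the AT1 ages, at 157 CPM at P3 (152 to 163), 141 CPM at P15 (135 to 148) and 145 CPM at P60 (136 to 155). The P60 interval overlaps both others. Tjp1 (chr7:65296165-65527781, minus strand) was at 169 CPM at P3 (163 to 174), 202 CPM at P15 (194 to 209) and 209 CPM at P60 (198 to 221), with overlap between the later pair. F11r (chr1:171437535-171464603, plus strand) was at 485 CPM at P3 (476 to 494), 664 CPM at P15 (651 to 678) and 744 CPM at P60 (724 to 766), in the order of age with no overlap. P60 over P3 was 1.54 (1.48 to 1.59) for F11r and 1.24 (1.17 to 1.32) for Tjp1, so neither reached 2-fold.

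Cdh1 (chr8:106603351-106670246, plus strand) was at 218 CPM at P3 (212 to 224), 235 CPM at P15 (227 to 243) and 370 CPM at P60 (355 to 385). P60 stands apart from both earlier ages, with a ratio of 1.58 over P15 (1.5 to 1.66) and 1.70 over P3 (1.62 to 1.78). The small difference between P15 and P3, 1.08 (1.03 to 1.13), turned when all cells were summed, and when the total excluded genes of ribosomal proteins, mitochondria and haemoglobin. Thinned cells with a Cdh1 UMI were 34.5% at P3, 36.9% at P15 and 51.4% at P60. In clusters named non-epithelial they were 17.4, 2.76 and 15.8%, and those clusters carried AT1 transcripts at each age.

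Counted by size, 2 of 8 members were at least 2-fold lower at P15 than at P3 (Cldn3 and Cldn4) and 0 were at least 2-fold higher, beside 6.6 and 9.25% of the 3288 genes at the minimum level (50 CPM and 30 UMIs in the higher library). Without the cells or clusters named above for Cldn4, it fell short of the minimum and 1 member was counted lower. From P15 to P60, 0 of the 6 members at the minimum passed 2-fold either way, beside 4.39% lower and 3.89% higher of 3420 genes. From P3 to P60, 1 of 7 was lower (Cldn3) and 0 were higher, beside 9.6 and 13.4% of 3458 genes. The members' median log2 ratios were -0.39, 0.07 and -0.12, and those of all genes at the minimum were 0.13, -0.04 and 0.12. TMM scaling moves every log2 ratio by 0.04, 0.12 and 0.22 downwards in these comparisons. The P15 over P3, P60 over P15 and P60 over P3 comparisons share libraries.

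**Figure D3:**
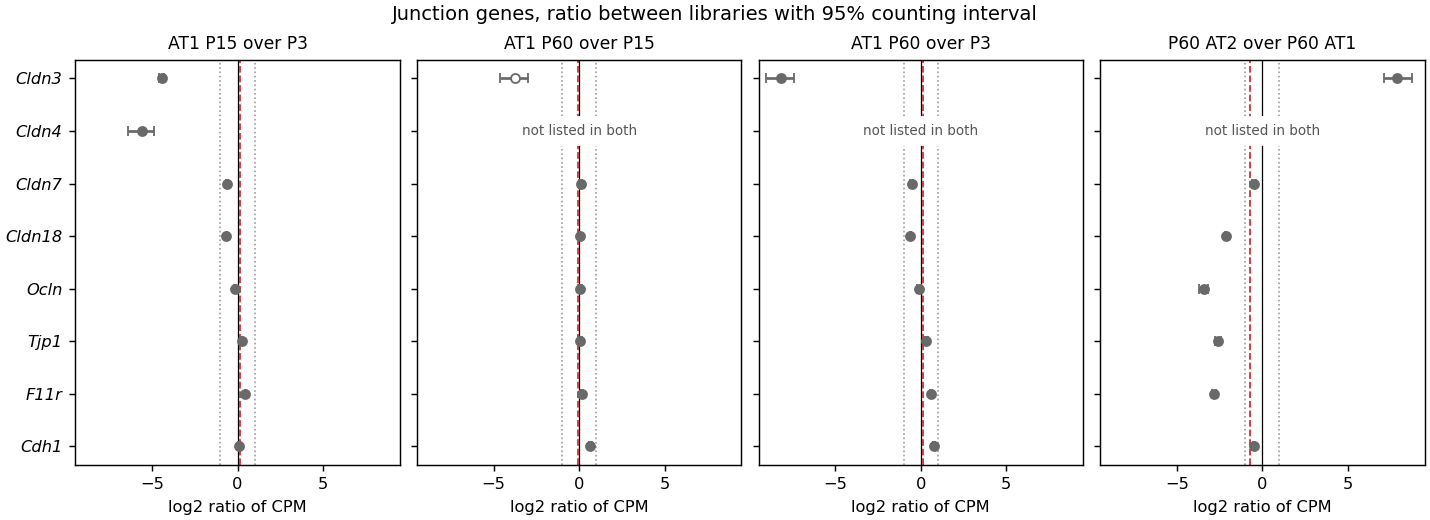
Log2 ratio of CPM for each gene in the 4 comparisons with 95% counting intervals; the solid line is 0, dotted lines mark 2-fold, the dashed line is the median of all genes at the minimum level, and the open point is below the minimum. Cldn3 lies at -4.44, -3.73, -8.17 and 7.88, and in the AT2 comparison the dashed line itself stands at -0.73.

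At P60, 5 of the 7 members listed in both classes differed by at least 2-fold between AT2-like and AT1-like cells, 4 lower and 1 higher in AT2-like cells, beside 40.4% lower and 13.3% higher of all genes at the minimum. Cldn3 was at 503 CPM in AT2-like cells (489 to 517) against 2.13 CPM in AT1-like cells, 236-fold higher (140 to 432), and was seen in 59.5% of thinned AT2-like cells, against 8 of 27 thinned immune-like cells of that library (29.6%, 13.8 to 50.2). Without the Hopx and Pdpn-led cluster it was at 537 CPM there. Ocln was 10.8-fold lower in AT2-like cells (9.02 to 13.0), at 13.4 against 145 CPM. F11r was 7.10-fold lower (6.64 to 7.59), at 105 against 744 CPM. Tjp1 was 6.01-fold lower (5.35 to 6.78), at 34.8 against 209 CPM. Cldn18 was 4.41-fold lower (4.29 to 4.53), at 675 against 2975 CPM, and was still the claudin with most UMIs in AT2-like cells. The AT1 marker Ager was at 1598 CPM in AT2-like cells, and 249 of the 2019 had fewer than 3 AT1 markers. The part of AT1 RNA in the levels of AT2-like cells was not tested. There Cldn18 made up 51.4% of the UMIs of the listed claudin members, Cldn3 38.3% and Cldn7 10.3%.

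Cldn7 and Cdh1 differed little, at 135 and 264 CPM in AT2-like cells, 1.41-fold (1.31 to 1.52) and 1.40-fold (1.32 to 1.48) below the AT1-like level. Both turned to slightly higher under TMM scaling, to log2 ratios of 0.15 and 0.16. Surfactant and other AT2 genes filled a large part of this library, the 20 AT2 markers summing to 262082 CPM, and the median log2 ratio of all 3496 genes at the minimum was -0.73. Under TMM, which moves log2 ratios up by 0.65, Ocln stood at -2.79, F11r at -2.18, Tjp1 at -1.94 and Cldn18 at -1.49, and the count was again 4 lower and 1 higher.

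Background cells of the AT2 library were few. The 28 non-epithelial cells of the AT2 library had 45.8 CPM of Cldn3 (12.5 to 117) at a median of 2580 UMIs, against 503 CPM in AT2-like cells at a median of 4911. For F11r these cells had 137 CPM (71 to 240) against 105 CPM in AT2-like cells, so F11r in AT2-like cells was not above that in cells of other types, some of which are known to express it. Tjp1 was likewise 34.3 CPM (7.08 to 100) in them against 34.8 CPM. Ocln had 0 UMIs in them, which allows up to 34.3 CPM, so the 13.4 CPM of AT2-like cells was not told apart from background. Within the AT2-like class the 4 clusters differed by at most 1.72-fold in any member. Cldn3 was highest, at 614 CPM, in the 610 cells of cluster 2, led by S100a6, Lgals3, Clu and the keratins Krt18 and Krt8, and Tjp1 and Cdh1 were lowest there, at 26.0 and 234 CPM.

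Other cells caught in the same gates show where the 8 genes stand outside AT1 cells, in the same library and dissociation. The 142 club and ciliated-like cells at P3 had 1719 CPM of Cldn3 (1659 to 1780), 2.81-fold above AT1-like cells. Their Cldn4 was 265 CPM (242 to 290), 4.70-fold above, and their Cldn7 and Cdh1 were 501 and 401 CPM, each 1.84-fold above. Cldn18 was 6.40-fold lower in them, at 707 CPM, Tjp1 2.89-fold lower and F11r 2.71-fold lower. Airway epithelium was thus the class with most Cldn3, Cldn4, Cldn7 and Cdh1, and AT1-like cells the class with most Cldn18, F11r, Ocln and Tjp1, among the point values of the 4 kinds of cell compared at P3. Tjp1 was at 112 CPM (81.8 to 149) in the 49 non-epithelial cells and 115 CPM (95.5 to 137) in AT2-like cells, both below the 169 CPM of AT1-like cells. In the whole mesenchymal or endothelial-like cluster at P3 (72 cells), which carried many AT1 transcripts, Tjp1 was at 166 CPM. That is 0.985 of the AT1-like level (0.812 to 1.18), so AT1-like cells did not stand apart from that cluster.

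The 65 AT2-like cells at P3 had 747 CPM of Cldn3 (697 to 800), 28.2 CPM of Cldn4 (19.2 to 40), 235 CPM of Cldn7, 2423 CPM of Cldn18, 82.8 CPM of Ocln, 115 CPM of Tjp1, 236 CPM of F11r and 171 CPM of Cdh1. For Cldn3 and Cldn7 this is within 1.22-fold of AT1-like cells of the same library. These cells had a median of 16685 UMIs against 7294 in AT1-like cells and an AT1 marker sum of 15650 CPM against 34794 CPM, and the part of AT1 RNA in their levels was not tested. Set beside the P60 AT2-like cells, which were sorted and dissociated otherwise, Ocln was 6.16-fold lower at P60 (4.67 to 8.09), Cldn18 3.59-fold lower (3.43 to 3.76), Tjp1 3.29-fold lower, F11r 2.25-fold lower, Cldn7 1.74-fold lower and Cldn3 1.49-fold lower (1.38 to 1.6). Cdh1 was 1.54-fold higher (1.33 to 1.8).

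Fibroblast, mural and endothelial-like cells at P15, 152 in number, held 7.58 CPM of Cldn3, 8.84 CPM of Cldn7, 25.3 CPM of Cdh1 and 30.3 CPM of Ocln. Cldn18 was the highest member in these cells, at 293 CPM (256 to 333), 9.84-fold below AT1-like cells. The part of AT1 RNA in these levels was not tested. Their Tjp1 was 85.9 CPM (66.7 to 109) and their F11r 201 CPM (171 to 235), 2.35- and 3.31-fold below AT1-like cells. Both genes are known from endothelium as well. At P3 the non-epithelial clusters carried many AT1 transcripts, 24222 CPM of AT1 markers in the immune-like cells, and the 49 cells with few of them are used in their place.

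**Figure D4:**
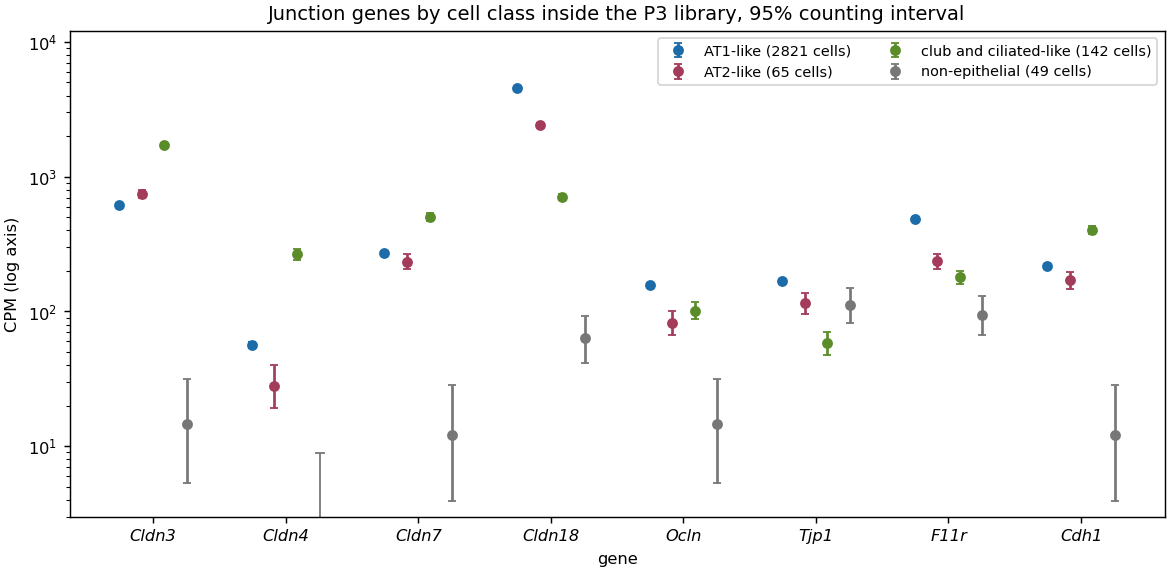
Level of the 8 genes in 4 kinds of cell inside the P3 library, in CPM on a log axis with 95% counting intervals; a line without a point is 0 UMIs up to the upper bound, and non-epithelial cells are the 49 with few AT1 transcripts. Cldn3, Cldn4, Cldn7 and Cdh1 are highest in club and ciliated-like cells, Cldn18, Ocln, Tjp1 and F11r in AT1-like cells (169 CPM of Tjp1, against 112 CPM in non-epithelial cells).

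The genes around Cldn3 and Cldn4 were read for comparison, 10 protein-coding genes in a span of 100000 bases to either side, counting that pair. Mettl27, next to Cldn4, was at 13.8, 4.42 and 1.37 CPM over the AT1 ages and 8.53 CPM in AT2-like cells, an order like that of Cldn3 at a level below the minimum. Abhd11, next to Cldn3 on the other side, was at 40.5, 19.9 and 18.7 CPM and 52.7 CPM in AT2-like cells. Bud23 was at 25 to 26.8 CPM and Dnajc30 at 41.3 to 46.8 CPM in AT1-like cells. Stx1a and Vps37d were under 5 CPM, and Cldn13 and Tmem270 were not listed.

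Genes with the most similar pattern were sought by Euclidean distance in centred log2(CPM + 10) over the 4 class sums, among 3852 genes. The nearest to Cldn3 were Mt1, Bex4 and Acot1, but at distances of 2.22 to 2.24, so no gene matched it closely. Mt1, a metallothionein, ran at 87.7, 16.2, 5.94 and 238 CPM. Cldn18 lay nearest to Epha4, Cish and Prss23 (0.0499, 0.122 and 0.130), Ocln to Slc7a7, Ajuba and Stx7 (0.118 to 0.136), Tjp1 to Smco4, Dlc1 and Thbs3 (0.0812 to 0.138) and F11r to Ppp3ca, Egfr and Il18r1 (0.097 to 0.171). With 4 points this is a description.

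Of 35 other claudins and tight junction membrane genes, 14 were listed at both P3 and P60, and 5 of these reached the minimum from P3 to P60. None of the 5 passed 2-fold at any AT1 age (Cldnd1, Lsr, Cxadr, Esam and Crb3). Cldn6, a claudin of fetal epithelia, was at 16.5 CPM at P3 and not listed later, and Cldn10 was at 4.54 CPM at P3 and 0.145 CPM at P15. Cldn23 was at 24.2, 43.1 and 35.5 CPM over the ages and 1.08 CPM in AT2-like cells. The angulin Lsr, which marks corners where 3 cells meet, was at 157, 191 and 150 CPM and was 2.24-fold lower in AT2-like cells (2.03 to 2.47). Cxadr, an adhesion protein that also serves as a virus receptor, was 6.90-fold lower there (6.19 to 7.7). In the AT2 comparison 4 of 6 at the minimum were lower and 0 higher, beside 40.4 and 13.3% of all genes, or 2 lower and 1 higher under TMM.

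The cytoplasmic plaque and polarity genes, which sit under the strands and set the apical border, were the list with most members higher at P60 than at P3. Of 18 at the minimum, 8 exceeded a 2-fold higher level and none a 2-fold lower one, beside 13.4 and 9.6% of all genes, with a list median of 0.87 against 0.12 for all genes, and under TMM 5 were higher. Arhgef18, an exchange factor for RhoA at the junction, was 4.32-fold higher (3.86 to 4.85), at 24.1, 68.9 and 104 CPM over the ages. Cingulin (Cgn), a plaque protein bound to ZO-1, was 3.11-fold higher (2.89 to 3.34), at 69.3, 175 and 215 CPM. Mpp5, the polarity scaffold also called Pals1, was 2.76-fold higher (2.6 to 2.93), and Magi3 2.52-fold (2.37 to 2.68). In AT2-like cells 15 of 19 were at least 2-fold lower than in AT1-like cells and 0 higher, 15 and 1 under TMM, beside the 40.4% of all genes. Pard6b, a subunit of the polarity complex, was 21.9-fold lower (18.5 to 26.0), at 14.9 against 326 CPM, and Arhgef18 14.7-fold lower (11.5 to 19.1).

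Among adherens junction genes 1 of 10 was at least 2-fold higher at P60 than at P3, Pvrl3 (nectin-3) at 2.22-fold (2.12 to 2.33), and none under TMM. That share is near the 13.4% of all genes. Ctnna1, the alpha-catenin that links cadherin to actin, was at 382, 587 and 682 CPM over the ages, and Jup, plakoglobin, at 149, 205 and 268 CPM. Others were lowest at P60, among them Ctnnb1 (beta-catenin) at 314, 314 and 194 CPM and Pvrl2 (nectin-2) at 237, 234 and 153 CPM. In the AT2 comparison 6 of 11 were lower and 2 higher, or 5 and 2 under TMM, shares near the 40.4 and 13.3% of all genes. Cdh13 is among the 6 and was listed at 0 in AT2-like cells, and Pvrl3 was 10.2-fold lower (9.24 to 11.3). Pvrl1 (nectin-1) was 14.1-fold higher (9.63 to 21.3) and Ctnnb1 2.66-fold higher (2.5 to 2.83).

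Of 11 desmosome and other adhesion genes at the minimum, 2 members, Epcam and Perp, were at least 2-fold lower at P60 than at P3, beside 9.6% of all genes. Spint1, an inhibitor of membrane serine proteases, was 2.02-fold higher, and was not past 2-fold under TMM. Epcam, the adhesion molecule that is known to bind Cldn7, was 2.75-fold lower (2.56 to 2.96), at 337, 170 and 122 CPM, and Perp 2.99-fold lower (2.6 to 3.46), at 97.1, 157 and 32.4 CPM.

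Of 17 transcription factor genes tied to epithelial junctions or to their loss, 5 reached the minimum from P3 to P60 and all 5 were at least 2-fold lower, also under TMM, beside 9.6% of all genes. Id1, an inhibitor of basic helix-loop-helix factors induced by BMP signals, was 14.5-fold lower (12.6 to 16.7), at 450, 158 and 31.1 CPM. Klf4, which is also an immediate early gene in many cells, was 12.9-fold lower (9.92 to 17.2), Id2 7.41-fold and Id3 5.17-fold. The 12 immediate early markers summed to 8163 CPM at P3, 3986 CPM at P15 and 2826 CPM at P60, beside these, and their part was not tested. Grhl2, the grainyhead-like factor known to act on claudin genes, was at 17, 13.3 and 16 CPM, and the repressor genes Snai1, Snai2, Zeb1 and Zeb2 were at 14.5 CPM or below wherever they were listed. In the AT2 comparison 2 reached the minimum, 1 higher and 1 lower, beside 13.3 and 40.4% of all genes. Id2 was 13.5-fold higher in AT2-like cells (11.9 to 15.4) and Id3 133-fold lower (81.5 to 233). Below the minimum, Ehf, Elf5 and Elf3 were at 45.4, 33.7 and 47.4 CPM, against not listed, not listed and 21.6 CPM in P60 AT1-like cells. Others there were lower in AT2-like cells, among them Klf5 at 22.9 against 45.5 CPM and Grhl2 at 8.83 against 16 CPM.

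**Figure D5:**
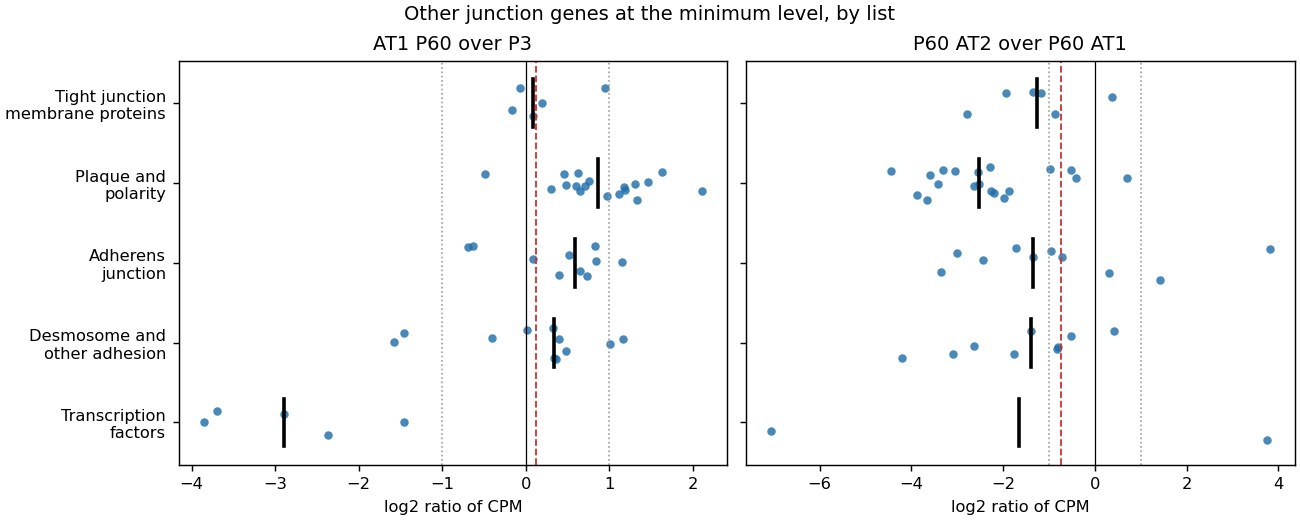
Log2 ratio of CPM for the other junction genes at the minimum level, by list, in P60 over P3 AT1-like cells and in AT2-like over AT1-like cells at P60; thick bars are list medians, dotted lines 2-fold, the dashed line the median of all genes, vertical jitter has no meaning, and Cdh13, listed at 0 in AT2-like cells, is not drawn. Most plaque and polarity genes lie to the right of the dashed line over age (median 0.87) and to its left in AT2-like cells (median -2.52).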

How the data were processed

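Cells of 4 libraries were measured by 10x 3' single-cell RNA sequencing. The deposited values were the natural log of a gene's UMIs scaled by the authors to 10000 per cell, plus 1, read from the values themselves; cells and genes had been filtered before deposit by rules not given in the sources used here. Cell Ranger 1.3.1, Seurat 2.0.0 and the builds mm10 and hg19 are named per the submitters' processing notes, without their roles. Whole UMIs were recovered for 100% of values within 0.05 of a whole number, so sums carry the depth of each library (7276458 to 26536894 UMIs).

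Clusters were made per library with Scanpy 1.11.5 and igraph 0.11.9 (2000 variable genes, 20 components, 15 neighbours, Leiden resolution 0.5) without the 8 genes and the other junction genes. A cluster was named for another type, and kept out of the AT1-like or AT2-like class, where 2 or more of that type's markers were among its 10 leading genes at 5-fold or more. No doublet caller was run. Cells in these clusters with 3 or more non-epithelial, 4 or more mesothelial or 5 or more airway markers were set aside (0 to 30 per library). These thresholds, the background cells and the promoter motifs were set with the data in view, and the genes and lists were chosen with earlier results of these data known.

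UMIs were summed over the class and given as CPM. Level and ratio intervals are exact Poisson, shares exact Clopper-Pearson. A gene was counted as different at 2-fold or more with at least 50 CPM and 30 UMIs in the higher library, over all genes listed in both files; 0 UMIs was read as up to 3 counts. Counting was tested on simulated data. All 8 genes are named; of 5 lists of other junction genes, up to 4 per list and comparison with the largest ratios are named, and genes below the minimum and neighbours in the genome were named after their values were seen. Similar patterns were sought for the 5 members listed in every library with at least a 4-fold range of CPM. Coordinates are from GENCODE M21 (mm10). Alternatives changed the scaling, the cells summed, the depth and the minimum. A result for the desmosome and other adhesion genes, and the list's count of higher genes, are not reported here.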

Additional observations from a re-analysis of the deposited data

How the results depend on the processing

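Of 114 recounts of members past 2-fold, 109 were within 1.5 times the value reported and 5 were not. At P15 against P3, 1 member was at least 2-fold lower in place of 2 in each of 3 settings: without cells that had 3 or more markers of the other alveolar type (890 P3 cells left), without clusters led by immediate early genes, and without the 1% of cells highest in the gene. In each, Cldn4 was under 50 CPM at P3. At P60 against P15, 1 member (Cldn3) was lower in place of 0 with all cells of each library and with no minimum level. Of 385 recomputed log2 ratios, 9 changed sign where the reported interval excluded 0, all for small differences; those of Cldn7, Ocln and Tjp1 at P60 over P15, whose intervals include 0, also took both signs. Cdh1 at P15 over P3 became -0.0241 with all cells and -0.106 with genes of ribosomal proteins, mitochondria and haemoglobin out of the total. Cldn18 at P60 over P15 became -0.0740 under TMM and -0.0826 under median of ratios. Ocln at P60 over P3 became 0.0710 with Malat1 out of the total. In AT2-like over AT1-like cells, Cldn7 became 0.15 (TMM) and 0.18 (median of ratios), and Cdh1 0.16 and 0.19. The cause was not tested, beyond the shift that each scaling applies to all genes.

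Cldn3 kept its direction in every setting. Its log2 ratios were -5.09 to -3.55 at P15 over P3, -10.91 to -6.21 at P60 over P3 and 5.76 to 10.63 in AT2-like over AT1-like cells. The ends come from all cells and from leaving out the 1% of cells highest in the gene. In P60 AT1-like cells that 1% held 85.7% of the 14 Cldn3 UMIs, so the ends of -10.91 and 10.63 rest on the few UMIs left. Cldn4 ranged from -7.76, where P15 had 0 UMIs and was set to 3 counts, to -4.88. Leaving out immediate early clusters gave no second value for the AT2 comparison, since no P60 cluster was of that kind. Shares of cells moved with the number of UMIs kept, in 56 of 60 cases. No paired analysis was possible because each group has 1 library, and no replicate could be left out. Depth limits the P60 AT1 level of Cldn3, at 14 UMIs, and the levels in small groups of other cells.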

Other observations

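In the P3 library, 133 Cldn4 UMIs were in the 72 cells of cluster 8, at 191 CPM (160 to 226), 3.37-fold above AT1-like cells (2.80 to 4.04). Its leading genes hold both mesenchymal genes (Eln, Mfap4, Col3a1, Col1a1) and Psca, Cnfn, Crct1 and Plet1, which are known from other epithelia, so the cluster may hold more than 1 kind of cell. The 49 non-epithelial cells of the library with few AT1 transcripts had 0 Cldn4 UMIs.

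At P15, the 99 thinned AT1-like cells with a Cldn3 UMI had a Cldn7 UMI in 37.4% of cells (27.8 to 47.7) and a Cdh1 UMI in 27.3% (18.8 to 37.1), against 27.8% (26.0 to 29.7) and 37.3% (35.3 to 39.3) of the 2345 cells without. Sftpc was at 364 CPM in the 99 cells and 109 CPM in the 2345, with a UMI in 15.2% (8.74 to 23.8) and 13.6% (12.3 to 15.1). The part of AT2 RNA in these cells was not tested. In AT2-like cells a Cdh1 UMI was in 40.5% (37.6 to 43.3) of the 1179 cells with a Cldn3 UMI and in 46.5% (43 to 50) of the 803 without.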
